A study of Mus musculus with 17 samples.

Results

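Arteriolar smooth muscle cells (aSMCs) sorted from 2 reporter lines of mice were compared, 6 libraries from SMACreER:Ai47 mice and 2 from SMACreER:Ai14 mice, which are 8 of the 17 bulk RNA-seq libraries of the series. The members were chosen by the reporter line in the sample labels, and all 8 libraries were used. Both lines carry SMACreER, a Cre recombinase that works only after tamoxifen and is driven by the promoter of smooth muscle actin, so that any cell that expresses this actin can be marked. Ai47 is a reporter with enhanced green fluorescent protein and Ai14 is a reporter with tdTomato, a red fluorescent protein. The Ai47 cells were EGFP-positive cells of vessels enriched from brains of adult mice about a month after tamoxifen, sorted without cells that carry CD31 (endothelial cells) or CD45 (immune cells). For the Ai14 cells the labels give the sorting of tdTomato-positive cells. The methods give tamoxifen in adulthood for bulk RNA-seq in general, and they also describe a sort of tdTomato-positive SMACreER:Ai14 cells from newborn pups, dosed before birth, for culture. Which of these applies to the 2 Ai14 libraries, and whether vessels were enriched or cells with CD31 or CD45 left out, is not stated for them. Within each group, the sorted aSMC samples and the cortex samples are described as coming from different mice. The text of the study takes its cortex control from part of the same dissociated cortices, kept back before sorting. The labels instead give the cortex samples as wild type, and the labels were followed here. A legend names Ai14 as the reporter line of the sorted aSMC samples where the labels and methods name Ai47, which was used here. For the Ai14 libraries the number of mice is not stated. The other libraries, 6 of wild-type cerebral cortex and 3 of astrocytes sorted from hGFAPCreER:Ai14 mice, served to estimate the spread and as a reference for levels.

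Mural cells are the contractile smooth muscle cells of arterioles and the pericytes of capillaries. They lie in a basement membrane of collagen IV, laminin, nidogen and perlecan that they share with endothelial cells, and astrocyte endfeet cover it from the brain side. Smooth muscle contracts through actin, the myosin heavy chain Myh11 and the myosin light chain Myl9, and calcium and cGMP set its tone. Libraries of sorted mural cells are usually also read for markers of endothelial cells, glia, neurons and blood.

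The reporter line went with library size and with nearly every other property of the libraries. Totals were 41499087 to 53643624 counts in the 6 Ai47 libraries and 14870507 and 14979228 counts in the 2 Ai14 libraries. Although deeper, the Ai47 libraries held fewer genes, with counts for 15231 to 15802 genes against 17021 and 16882. At the smallest aSMC total, 13189 to 14043 genes were expected in Ai47 and 17021 and 16876 in Ai14. Mitochondrially encoded genes took 0.214% to 0.559% of the counts in Ai47 and 16.8% and 17.6% in Ai14. Depth, sorting marker, sample round and Y-linked counts (given below) all differ together with the reporter line. Their parts in any difference, and that of mouse sex, cannot be told apart. In bulk libraries, fewer cells of a type and less RNA per cell cannot be told apart either.

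The 6 Ai47 columns also shared most of their counts. For each gene, the lowest of the 6 columns can be found in all of them, and these common counts made up 72.3% to 93.5% of each column and 79.5% of all Ai47 counts, against 51.0% when the same was done over 6 columns of cortex. Adamtsl3, a secreted matrix protein, had 56770 to 56774 counts in the 6 columns, and Prok2, a secreted signalling peptide, had 7840 in every one. Of 7220 genes with a mean of at least 100 counts in Ai47, 70 had 6 values within 5% of each other and 38 had a variance between columns more than 10 times smaller than their mean, while 0 of 3967 such genes in cortex met either limit. Acta2 (66871 to 85118 counts) and Myh11 (32772 to 64496 counts) varied more. Over the 7220 genes, the median ratio of the highest to the lowest column was 4.82, and over the 3967 genes in cortex it was 5.90. The share of common counts is weighted by abundant genes, and it does not describe the typical gene. The standard errors and p-values below rest on a spread estimated over all 4 groups of libraries. The Ai47 part of it is only the spread between these columns, which may be technical. Counts of calls are therefore given also with the 6 Ai47 columns summed and used as 1 library (below, "as 1 library"), where the 2 Ai14 libraries and the other groups set the spread. That sum keeps the common counts. In fits on the counts above them, the common counts were taken from Ai47 alone and Ai14 was left whole. Where nearly all counts were common little was left, so a call lost there does not show that the lines were alike. As 1 library, few genes of any kind were called (shares below). A list without calls in that fit is therefore not shown to be alike between the lines either.

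**Figure D1:**
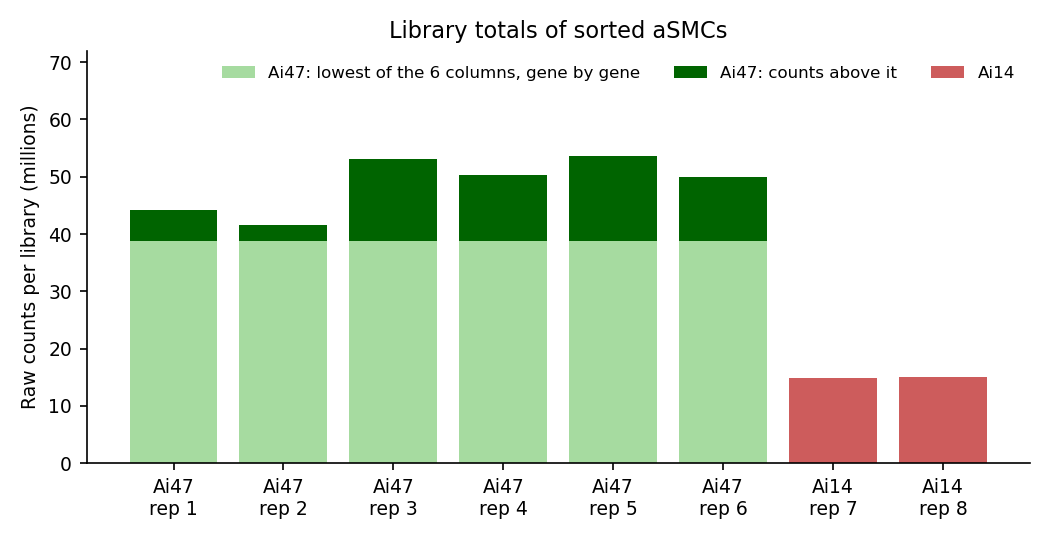
Raw counts (vertical axis) in each of the 8 libraries of sorted aSMCs; light green is the part of an Ai47 column that equals the lowest of the 6 columns gene by gene, dark green the counts above it, and red the Ai14 libraries. The common part makes up 72.3% to 93.5% of each Ai47 column, and both Ai14 libraries are smaller than the smallest Ai47 library.

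The lines were compared by the quasi-likelihood test of edgeR over all 17 libraries, and a gene is called higher in a line at a Benjamini-Hochberg adjusted p under 0.05. Of 14927 genes tested, 25.6% were called, 9.55% (1426 genes) as higher in Ai47 and 16.0% (2392 genes) as higher in Ai14. As 1 library, 3.17% of 15916 genes were called, 2.78% (442 genes) higher in Ai47 and 0.396% (63 genes) higher in Ai14, and all 505 of these genes were called in the same direction over the 17 libraries. Without Ai14 replicate 7 the counts were 571 and 859, and without replicate 8 they were 604 and 975. Without any 1 Ai47 library the counts were 1522 to 1621 and 1573 to 1724, so the excess of calls higher in Ai14 was much smaller. Over all genes tested, the 6 Ai47 values lay above both Ai14 values in 21.0% and below both in 31.2%. Levels are counts per 1e6 reads counted (CPM) after TMM, a scaling that allows for a few genes taking many counts. Ai47 levels are given as the lowest, the median and the highest of 6 libraries and Ai14 levels as replicates 7 and 8. The TMM factors were 0.423 to 0.551 in Ai47 and 2.21 in both Ai14 libraries, so the scaling decides much. The median log2 fold change of all genes (Ai47 minus Ai14) was -0.42, it was between -0.15 and 0.08 with DESeq2's size factors, with the 8 aSMC libraries alone and with any 1 library left out, and it was -2.59 with library totals alone. The share of the calls that were higher in Ai47 was 37.3%, and it was 45.1% with DESeq2's size factors, 57.1% with DESeq2, 48.5% with the 8 aSMC libraries alone, 7.48% with library totals alone, 49.1% with mitochondrially encoded genes left out and 87.5% as 1 library. Medians of gene lists are therefore given relative to the median of all genes.

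Both lines held smooth muscle contractile genes, at a summed level far above that of cortex, but most members were lower in Ai47 (given below). The summed level of 18 smooth muscle contractile genes was 11819, 13474 and 16728 CPM in Ai47 and 19014 and 19815 CPM in Ai14, with a mean of 324 CPM in cortex and 770 CPM in sorted astrocytes. Ai47 lay below Ai14 in this sum without overlap, at 0.70 times its mean, and with library totals alone at 0.15 times (5661 to 7237 CPM against 42010 and 43643 CPM). Without Tpm1, the member with the highest mean in Ai47, the sum was 7942, 8940 and 9382 CPM in Ai47 and 17524 and 18209 CPM in Ai14. Acta2, the smooth muscle actin after which the Cre line is named, was at 2464, 3059 and 4460 CPM in Ai47 and 2514 and 2734 CPM in Ai14. The groups overlapped, and the log2 fold change of 0.32 (95% interval -0.870 to 1.502) was not called (adjusted p = 0.736, edgeR). An exact two-sided permutation test over the 28 assignments of the 8 libraries gave p = 0.357, where 0.0714 is the smallest p that the design allows. The Acta2 result depends on the scaling, since with library totals alone it was called as lower in Ai47 (log2 fold change -1.92, adjusted p = 0.00914, edgeR). The log2 fold change was 0.74 with DESeq2's size factors and 0.86 with mitochondrially encoded genes left out, neither called. It was 0.63 to 0.91 with any 1 library left out, 0.80 as 1 library and -2.09 on the counts above the common ones. Myh11 was at 1867, 2192 and 2617 CPM in Ai47 and 4038 and 4194 CPM in Ai14, a log2 fold change of -0.92 (95% interval -2.35 to 0.51) that was not called (adjusted p = 0.357). Neither interval is narrow enough to show that the level was shared: of all genes, 0.590% had a 95% interval within -1 to 1 on the log2 scale, and of the 427 tested members of the gene lists, none had.

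The promoter of Acta2 is shown because it names the driver of Cre in both lines and Acta2 marks the cells, and that of Myl9 as one of the contractile genes with a CArG box, the motif that serum response factor binds in many smooth muscle genes. Both are the 250 bases before the start of the gene in RefSeq (GRCm38.p6), printed 5′ to 3′ on the strand of the gene, with any CArG box in capitals. The labels do not give the stretch of promoter in the transgene itself.
Acta2 (chr19:34255374-34255623, minus strand): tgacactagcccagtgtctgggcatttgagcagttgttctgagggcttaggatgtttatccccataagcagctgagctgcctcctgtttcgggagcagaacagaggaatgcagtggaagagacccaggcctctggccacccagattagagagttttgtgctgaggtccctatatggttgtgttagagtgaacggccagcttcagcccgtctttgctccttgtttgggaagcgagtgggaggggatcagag
Myl9 (chr2:156775214-156775463, plus strand): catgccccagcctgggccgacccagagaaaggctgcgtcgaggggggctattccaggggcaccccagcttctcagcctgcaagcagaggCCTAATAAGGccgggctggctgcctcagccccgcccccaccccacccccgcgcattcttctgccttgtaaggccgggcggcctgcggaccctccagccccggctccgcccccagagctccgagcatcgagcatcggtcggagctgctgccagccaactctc
A CArG box, searched on both strands, was found in 2 of 15 contractile genes with a promoter in the table (13.3%; Myl9, 161 bases before the start, and Vcl, 227 bases) and in 1.62% of 27025 genes with a promoter. Tagln, Myh11 and Actg2, the other 3 contractile genes, were not searched. The search covers only these windows and only the strict form of the box (CC, 6 bases that are each A or T, then GG), so that a box with another letter in it, in Acta2 or elsewhere, is not counted.

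**Figure D2:**
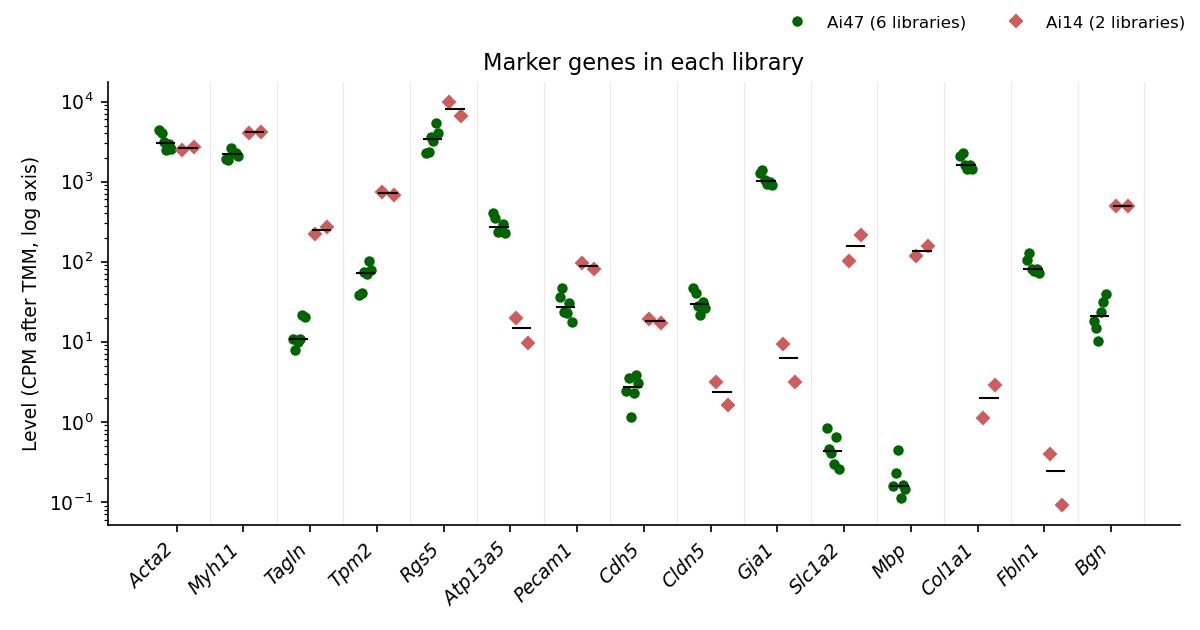
Levels (CPM after TMM, log axis) of 15 marker genes in each library, with green circles for the 6 Ai47 libraries, red diamonds for the 2 Ai14 libraries and a black line at the median of each group. Acta2 overlaps between the lines, Col1a1, Gja1 and Fbln1 lie higher in Ai47, and Tagln, Tpm2, Slc1a2, Mbp and Bgn lie higher in Ai14.

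Several thin-filament genes were higher in Ai14. Tagln, which encodes transgelin and binds actin, was at 7.81, 10.9 and 21.9 CPM in Ai47 and 220 and 274 CPM in Ai14. All 6 Ai47 values were below both Ai14 values, with a log2 fold change of -4.19 (SE 0.68, adjusted p = 0.000165, edgeR) that was -3.60 and not called as 1 library (adjusted p = 0.227). Tpm2, a tropomyosin, was at 38.2, 71.9 and 101 CPM in Ai47 and 747 and 675 CPM in Ai14 (log2 fold change -3.41, SE 0.75, adjusted p = 0.00237). Cald1, the actin-binding caldesmon, had a log2 fold change of -2.14, Smtn, a cytoskeletal protein of smooth muscle, of -2.72, and Flna, an actin cross-linker, of -2.08, all called. Tpm1, another tropomyosin, had the other sign, at 3366, 4304 and 7379 CPM in Ai47 and 1490 and 1606 CPM in Ai14, but was not called (log2 fold change 1.61, adjusted p = 0.0568). Of the 18 contractile genes, 7 (38.9%, against 16.0% of all genes) were called higher in Ai14 and 0 higher in Ai47 (2 higher in Ai47 at an unadjusted p under 0.05, and DESeq2 called 2). As 1 library, 0 were called in either direction (1 in each direction at an unadjusted p under 0.05). Their median log2 fold change was -1.27 relative to that of all genes (-1.38 to -1.12 over 10 other fits). All 6 Ai47 values lay below both Ai14 values in 13 of the 18 genes and above both in 2, against 31.2% and 21.0% of all genes.

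Calls among channels and signalling genes of smooth muscle were all in one direction. Of 19 tested, 9 (47.4%, against 16.0% of all genes) were called higher in Ai14 and 0 higher in Ai47 (0 at an unadjusted p under 0.05, and DESeq2 called 0). The median was -1.58 relative to all genes. Ednra, the endothelin receptor of smooth muscle, was at 0.912, 8.82 and 33.6 CPM in Ai47 and 344 and 316 CPM in Ai14 (log2 fold change -4.80, SE 0.83, adjusted p = 0.00032). All 6 Ai47 values lay below both Ai14 values. Gucy1b1, a subunit of the guanylate cyclase that nitric oxide activates, was at 3.52, 5.89 and 19.9 CPM in Ai47 and 136 and 122 CPM in Ai14 (log2 fold change -3.78). Its partner Gucy1a1 was at 148, 281 and 311 CPM in Ai47 and 371 and 360 CPM in Ai14, and was not called (log2 fold change -0.51, adjusted p = 0.696). Atp2a2, the calcium pump of the sarcoplasmic reticulum, had a log2 fold change of -3.19, Prkg1, the kinase activated by cGMP, of -3.72, and Slc8a1, a sodium-calcium exchanger, of -3.69. As 1 library, none of the 19 was called (3 were higher in Ai14 at an unadjusted p under 0.05, and 0 in Ai47). Mrvi1, a substrate of that kinase, was at 665, 897 and 1039 CPM in Ai47 and 289 and 327 CPM in Ai14, and was not called (log2 fold change 1.51, adjusted p = 0.215).

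The transcription factors divided. Ebf1, a factor of mural cells, was at 3160, 3778 and 4589 CPM in Ai47 and 375 and 363 CPM in Ai14. It was called higher in Ai47 over the 17 libraries (log2 fold change 3.39, SE 0.59, adjusted p = 0.000317) and as 1 library (3.92, 95% interval 2.03 to 5.80, adjusted p = 0.0211). Of the counts of Ebf1 in Ai47, 75.1% were common to the 6 columns, and on the counts above the common ones the log2 fold change was 2.40 and not called (adjusted p = 0.249). Notch3, the Notch receptor of mural cells, was at 86.3, 126 and 235 CPM in Ai47 and 592 and 622 CPM in Ai14 (log2 fold change -2.07, SE 0.58, adjusted p = 0.0127), and its target Hey2 had a log2 fold change of -3.75. Myocd and Srf, which together activate contractile genes, overlapped between the lines and were not called (log2 fold changes -0.78 and -1.10). Without Ebf1, the summed level of this list was 747, 1021 and 1536 CPM in Ai47 and 2029 and 2092 CPM in Ai14, whereas with it Ai47 had 2.04 times the mean of Ai14 (0.44 times by library totals alone).

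Pericyte markers had a median close to that of all genes. Of 14 tested, 1 (7.14%) was called higher in Ai47 and 3 (21.4%) higher in Ai14, against 9.55% and 16.0% of all genes. The median was -0.02 relative to all genes. Rgs5, a regulator of G-protein signalling abundant in mural cells, was at 2274, 3397 and 5438 CPM in Ai47 and 9763 and 6608 CPM in Ai14. The groups did not overlap, but the gene was not called (log2 fold change -1.23, SE 0.52, adjusted p = 0.0894). Atp13a5, a transporter ATPase that marks brain pericytes, was at 228, 272 and 400 CPM in Ai47 and 19.7 and 9.73 CPM in Ai14, and was called over the 17 libraries (log2 fold change 4.32, SE 0.73, adjusted p = 0.000327) and as 1 library (4.82, adjusted p = 0.0298). Of its Ai47 counts 87.5% were common to the 6 columns, and above them it was not called (log2 fold change 2.33, adjusted p = 0.522). Anpep, an aminopeptidase of pericytes, had the opposite difference, at 0.105, 0.287 and 1.54 CPM in Ai47 and 12.4 and 13.3 CPM in Ai14 (log2 fold change -4.48, adjusted p = 0.0157). Pdgfrb, the receptor that pericytes need for recruitment, was lower in Ai47 (4.95, 33.6 and 111 CPM against 238 and 203 CPM; log2 fold change -2.48, adjusted p = 0.047). Cspg4, known as NG2, overlapped (245, 358 and 460 CPM against 315 and 411 CPM), and its log2 fold change of -0.07 (95% interval -2.11 to 1.98) turned positive in most other fits. Over the 64 mural members tested, 22 (34.4%) were called higher in Ai14 and 2 (Ebf1 and Atp13a5, 3.13%) higher in Ai47, against 16.0% and 9.55% of all genes. The count higher in Ai14 was 13 with mitochondrially encoded genes left out of the scaling, 11 to 14 without any 1 Ai47 library, 5 without Ai14 replicate 7, 4 without replicate 8 and 0 as 1 library (4 at an unadjusted p under 0.05; DESeq2 over the 17 libraries called 17).

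**Figure D3:**
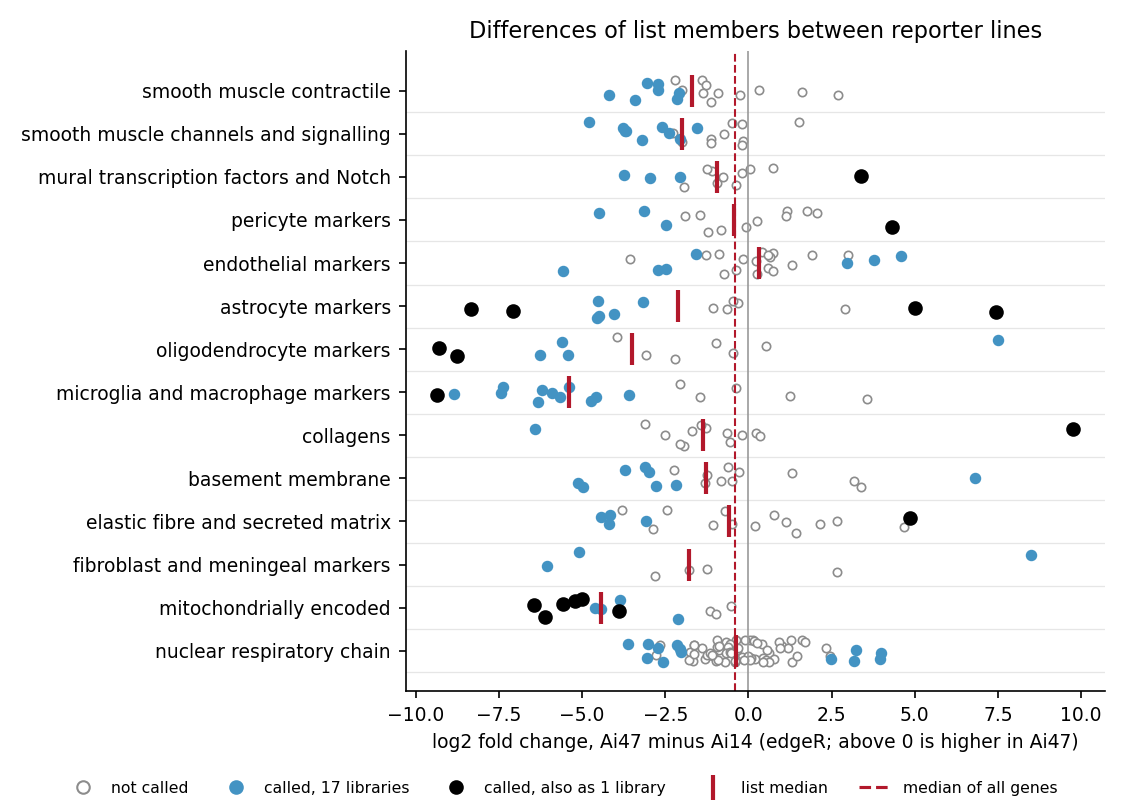
Log2 fold change (horizontal axis, Ai47 minus Ai14, edgeR over 17 libraries) of each tested member of 14 gene lists, as open circles where not called, blue where called over the 17 libraries and black where called also as 1 library; red bars are list medians and the dashed line is the median of all genes at -0.42. Values of members without counts in a line depend on the prior count of the fit. Microglia, oligodendrocyte and mitochondrially encoded lists lie farthest to the left, and Col1a1 and Fbln1 are the points farthest to the right.

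Endothelial markers were present in both lines, with a summed level of 429, 523 and 701 CPM in Ai47 and 500 and 438 CPM in Ai14, against a mean of 1095 CPM in cortex. The sums overlapped, and by library totals alone the Ai47 sum was 0.25 times that of Ai14. The defining markers were not at 0 in either line. Pecam1, which encodes the CD31 used for exclusion in the Ai47 sort, was at 17.4, 26.9 and 47.2 CPM in Ai47 and 95.8 and 80.0 CPM in Ai14 (log2 fold change -1.57, SE 0.58, adjusted p = 0.0495). Cdh5, the cadherin of endothelial junctions, was at 1.14, 2.71 and 3.88 CPM in Ai47 and 19.0 and 17.03 CPM in Ai14 (log2 fold change -2.73). Slc2a1, which carries glucose into the brain, had a log2 fold change of -2.48, and Erg, an endothelial transcription factor, was at 0.405, 0.549 and 1.62 CPM in Ai47 and 50.6 and 26.7 CPM in Ai14 (log2 fold change -5.57). These 4 genes were all lower in Ai47 without overlap. Over the 24 members, Ai47 lay wholly above Ai14 in 5 and wholly below in 7, near the 21.0% and 31.2% of all genes. The reverse was called for Cldn5, the tight junction protein (21.6, 29.5 and 46.6 CPM in Ai47 and 3.10 and 1.61 CPM in Ai14; log2 fold change 3.77), for Esam, an adhesion molecule (193, 242 and 289 CPM against 32.3 and 29.1 CPM; 2.97), and for Egfl7, a secreted vessel protein (9.87, 16.2 and 32.7 CPM against 1.4001 and 0.121 CPM; 4.59). The median of the list was 0.74 above that of all genes, and 0.72 below it (-0.72) on the counts above the common ones. Flt1, Kdr and Tek, receptors of vascular growth factors, were not called. Of 24 tested, 3 (12.5%) were called higher in Ai47 and 4 (16.7%) higher in Ai14, shares near the 9.55% and 16.0% of all genes. As 1 library, 0 were called in either direction (3 higher in Ai47 and 1 higher in Ai14 at an unadjusted p under 0.05; DESeq2 over the 17 libraries called 3 and 3). The count of 4 was 1 to 3 with any 1 library left out, and the count of 3 was 1 without Ai14 replicate 7 and 0 without replicate 8.

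Of 43 glial members tested, 24 (55.8%) were called higher in Ai14 and 3 (6.98%) higher in Ai47, against 16.0% and 9.55% of all genes. As 1 library the counts were 5 and 2. Without Ai14 replicate 7 they were 16 and 2. The median was -3.62 relative to all genes, and -2.66 with members that lack counts in a line set to their bounds. Mbp, a protein of myelin, was at 0.111, 0.159 and 0.446 CPM in Ai47 and 117 and 155 CPM in Ai14, against a mean of 4630 CPM in cortex. The log2 fold change was -9.31 (SE 0.77, adjusted p = 5.2e-08) and the call held as 1 library (-8.80, adjusted p = 0.0105). Mobp, another myelin gene, was at 0.0404, 0.107 and 0.285 CPM in Ai47 and 32.7 and 68.9 CPM in Ai14, and held as 1 library too (-8.31, adjusted p = 0.00386). The summed level of the 12 oligodendrocyte markers was 3.02, 5.82 and 18.9 CPM in Ai47 and 171 and 246 CPM in Ai14. Without Cnp, an enzyme of myelin that overlapped between the lines (0.893, 4.01 and 15.96 CPM against 4.23 and 2.82 CPM), the Ai47 sum was at most 2.91 CPM. Mog and Olig1 had no counts in Ai47 and at most 0.122 and 0.667 CPM in Ai14. Cldn11 had 30 or 31 counts in each Ai47 column and none in Ai14, where 3 counts in 1 library puts it at least 14.6-fold higher in Ai47.

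Microglia and macrophage markers were called higher in Ai14 in 12 of 17 tested (70.6%, against 16.0% of all genes), with 0 called higher in Ai47 (0 at an unadjusted p under 0.05, and DESeq2 called 1). As 1 library, P2ry12 alone was called (6 were higher in Ai14 at an unadjusted p under 0.05). Their median was -4.98 relative to all genes, and -3.90 with the 4 members that lack counts in a line set to their bounds. P2ry12, a receptor of microglia, had no counts in the 6 Ai47 columns and was at 7.06 and 2.58 CPM in Ai14, at least 28.2-fold higher from 3 counts in 1 Ai47 library, with an adjusted p of 0.0313 as 1 library in edgeR. Cx3cr1, the fractalkine receptor, was at 0.0364, 0.0547 and 0.122 CPM in Ai47 and 7.79 and 2.70 CPM in Ai14. The summed level was 2.88, 11.2 and 43.5 CPM in Ai47 and 69.9 and 29.2 CPM in Ai14, and the sums overlapped. Ptprc, which encodes CD45, went against the rest, at 0.327, 0.719 and 38.0 CPM in Ai47 and 0.822 and 0.515 CPM in Ai14. Its highest value came from Ai47 replicate 1 alone, the groups overlapped and it was not called. Without Ptprc, the summed level was 2.52, 5.25 and 19.0 CPM in Ai47 and 69.1 and 28.7 CPM in Ai14, and the sums did not overlap.

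Astrocyte markers split into a large group that was higher in Ai14 and a pair that was higher in Ai47. Slc1a2, the glutamate transporter of astrocytes, was at 0.255, 0.431 and 0.838 CPM in Ai47 and 102 and 214 CPM in Ai14, with a mean of 9206 CPM in cortex (log2 fold change -8.35, SE 0.64, adjusted p = 1.76e-08), and the call held as 1 library (-7.88, adjusted p = 0.0059). Aldoc, a glycolytic enzyme of astrocytes, had 0 to 6 counts per Ai47 column and was at 9.50 and 13.003 CPM in Ai14 (log2 fold change -7.07), and its call held too (adjusted p = 0.0163). Gfap, the intermediate filament, had 0 to 3 counts per Ai47 column and 39 and 60 counts in Ai14. In contrast, Gja1, the gap junction protein connexin 43, was at 903, 1019 and 1403 CPM in Ai47 and 9.47 and 3.18 CPM in Ai14 (log2 fold change 7.43, SE 0.98, adjusted p = 1.9e-05; as 1 library 7.95, adjusted p = 0.00127). Sox9, a transcription factor of astrocytes and of cartilage, was at 272, 327 and 482 CPM in Ai47 and 15.9 and 5.09 CPM in Ai14 (log2 fold change 5.02; as 1 library 5.54, adjusted p = 0.00595). Both exceeded their means in cortex, 58.0 CPM for Gja1 and 32.5 CPM for Sox9, and 97.8% and 83.7% of their Ai47 counts were common to the 6 columns. On the counts above the common ones neither was called (log2 fold changes 2.94 and 3.42). With Gja1, the astrocyte sum was 1267, 1430 and 1926 CPM in Ai47 and 1072 and 1110 CPM in Ai14, but with library totals alone the order reversed without overlap (639 to 815 CPM against 2368 and 2444 CPM). Without Gja1, Ai47 was the lower also after TMM, at 364, 385 and 523 CPM against 1062 and 1106 CPM, most of which in Ai14 were counts of Atp1b2, a sodium pump subunit (883 and 846 CPM, against 30.1, 53.4 and 80.0 CPM in Ai47).

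**Figure D4:**
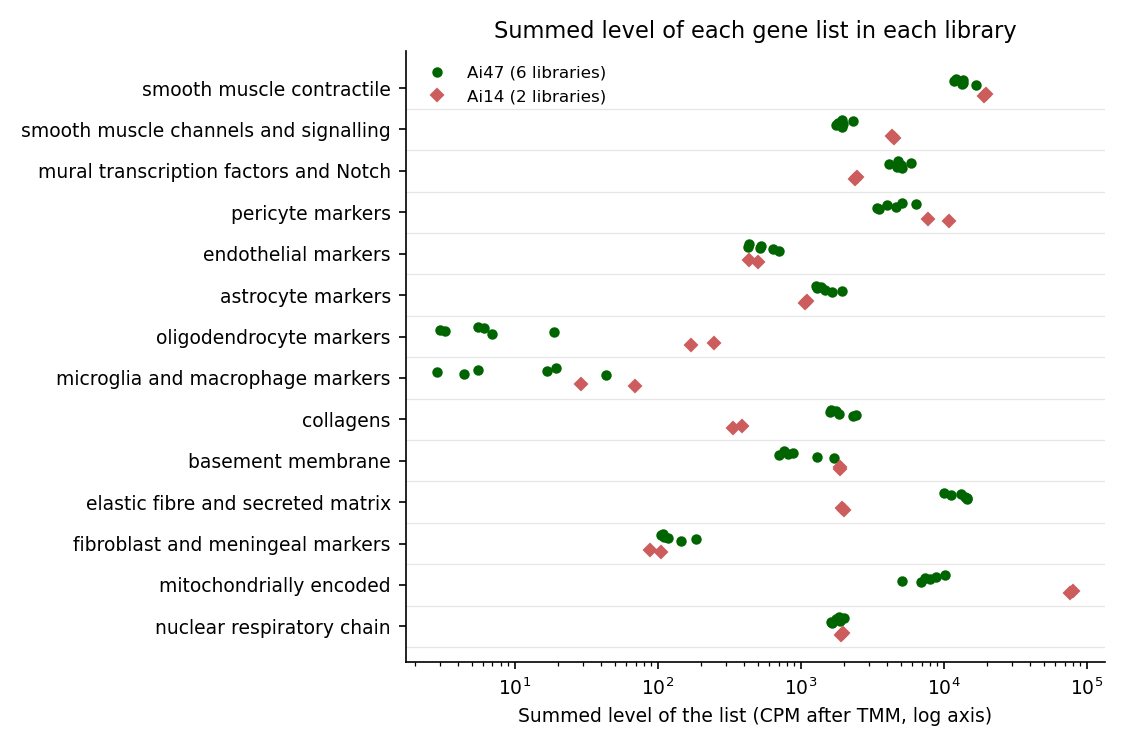
Summed level (CPM after TMM, log axis) of each of 14 gene lists in each library, with green circles for the 6 Ai47 libraries and red diamonds for the 2 Ai14 libraries. Mitochondrially encoded and oligodendrocyte sums lie higher in Ai14, the sums of collagens and of elastic fibre and secreted matrix lie higher in Ai47, and endothelial sums overlap.

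After TMM, the summed matrix level of Ai47 was 3.71 times that of Ai14, on few genes, and with library totals alone it was 0.79 times. Col1a1, the alpha 1 chain of type I collagen, was at 1435, 1601 and 2248 CPM in Ai47 and 1.126 and 2.88 CPM in Ai14, with a mean of 1.31 CPM in cortex. It was called over the 17 libraries (log2 fold change 9.76, SE 1.06, adjusted p = 1.93e-06) and as 1 library (10.24, 95% interval 7.29 to 13.19, adjusted p = 0.000479). The exact two-sided permutation test gave p = 0.0714, the smallest that 6 against 2 allows. Its raw counts were 39417 to 40086 in all 6 columns, so that 99.6% were common, and on the counts above the common ones the log2 fold change was 2.73 and not called (adjusted p = 0.604). With so few Ai47 counts left, that fit cannot decide whether the lines differed. Col1a2, whose chain joins that of Col1a1 in the same triple helix, overlapped between the lines at 75.4, 109 and 195 CPM in Ai47 and 76.9 and 118 CPM in Ai14 (log2 fold change 0.22, adjusted p = 0.858). The 2 chains of type I collagen thus had different values in the same libraries. Of 14 collagens tested, 1 was called higher in Ai47 and 1 higher in Ai14 (Col15a1, which had no counts in Ai47 and 4 and 37 counts in Ai14). That is 7.14% in each direction, against 9.55% and 16.0% of all genes. The collagen sum was 1590, 1802 and 2424 CPM in Ai47 and 337 and 391 CPM in Ai14, and without Col1a1 it was 138, 177 and 233 CPM against 336 and 388 CPM. With library totals alone, the collagen sums with Col1a1 overlapped, at 816 to 1025 CPM in Ai47 and 745 and 860 CPM in Ai14.

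Ltbp1, which binds latent TGF-beta in the matrix, was at 8699, 12073 and 13146 CPM in Ai47 and 401 and 384 CPM in Ai14 (log2 fold change 4.87, SE 0.76, adjusted p = 0.000117), and its call held as 1 library (5.38, adjusted p = 0.00758) but not on the counts above the common ones (3.09, adjusted p = 0.202). Without Ltbp1, the sum of elastic fibre and secreted matrix genes was 1122, 1359 and 1667 CPM in Ai47 and 1596 and 1547 CPM in Ai14, and the groups overlapped. Bgn, a small proteoglycan, was at 10.3, 20.8 and 39.8 CPM in Ai47 and 494 CPM in both Ai14 libraries (log2 fold change -4.43, SE 0.75, adjusted p = 0.00025), and Mgp, an inhibitor of calcification, had a log2 fold change of -3.07. Sparc and Fn1, abundant secreted matrix proteins, were not called (log2 fold changes 1.11 and 0.78). Among basement membrane genes, 7 of 18 (38.9%) were called higher in Ai14 and 1 (5.56%) higher in Ai47, against 16.0% and 9.55% of all genes. Hspg2, which encodes perlecan, was at 1.18, 2.44 and 11.9 CPM in Ai47 and 100 and 170 CPM in Ai14 (log2 fold change -5.13, SE 1.02, adjusted p = 0.00109). Col4a2, Lama2, Lama3, Lama5, Lamb2 and Nid1 were also higher in Ai14, with log2 fold changes of -2.98, -3.71, -4.98, -2.77, -2.18 and -3.11. The exception was Col4a3, a collagen IV chain of kidney and lung basement membranes, at 163, 296 and 912 CPM in Ai47 and 3.90 and 4.24 CPM in Ai14 (log2 fold change 6.82, SE 1.63, adjusted p = 0.00447; as 1 library 7.21, adjusted p = 0.0634). Fbln1, a fibulin of fibroblasts, was at 73.1, 81.4 and 127 CPM in Ai47 and 0.396 and 0.0909 CPM in Ai14 (log2 fold change 8.50, adjusted p = 0.00526; as 1 library 9.01, adjusted p = 0.0977).

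The fibroblast markers Lum and Pdgfra were at or near 0 in both lines. Pdgfra had no counts in Ai47 and 8 counts in each Ai14 library (called higher in Ai14), and Lum had at most 1 count in an Ai47 column and 0 and 4 counts in Ai14. Dcn, a proteoglycan of fibroblasts, was at 0.764, 1.15 and 19.1 CPM in Ai47 and 0.457 and 0.849 CPM in Ai14, and was not called. The summed fibroblast and meningeal level was 106, 114 and 186 CPM in Ai47 and 105 and 88.6 CPM in Ai14, mostly Fbln1 in Ai47 and Ogn, a small proteoglycan, in Ai14. Over 57 matrix members tested, 4 (Col1a1, Col4a3, Ltbp1 and Fbln1) were called higher in Ai47 and 14 higher in Ai14. These shares are 7.02% and 24.6%, against 9.55% and 16.0% of all genes. As 1 library the counts were 2 and 0 (4 higher in Ai14 at an unadjusted p under 0.05; DESeq2 over the 17 libraries called 10). The 14 became 7 without Ai14 replicate 7, 5 without replicate 8, and 9 without Ai47 replicate 3 or 5 or with mitochondrially encoded genes left out.

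Mitochondrially encoded RNA was far lower in Ai47. Of 13 genes tested, 10 (76.9%, against 16.0% of all genes) were called higher in Ai14 and 0 higher in Ai47 (0 at an unadjusted p under 0.05, and DESeq2 called 0). The median was -4.03 relative to all genes. The summed level was 5072, 7661 and 10161 CPM in Ai47 and 76090 and 79840 CPM in Ai14. As 1 library, 6 stayed called. Among them, mt-Co2, a subunit of cytochrome oxidase, was at 35.8, 66.4 and 107 CPM in Ai47 and 3200 and 3363 CPM in Ai14 (log2 fold change -5.58, SE 0.43, adjusted p = 1.91e-08; as 1 library -5.01, adjusted p = 0.0134). mt-Cytb, of complex III, was at 182, 292 and 373 CPM in Ai47 and 10379 and 10845 CPM in Ai14 (log2 fold change -5.21; as 1 library -4.63, adjusted p = 0.0477). mt-Atp6 of ATP synthase had a log2 fold change of -5.00 and mt-Co3 of -3.90. The other 2, mt-Atp8 (-6.43) and mt-Nd4l (-6.12), overlap mt-Atp6 and mt-Nd4 in the mitochondrial genome, and how reads in the overlap were assigned is not stated in the labels or methods.

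The mitochondrially encoded genes did not differ by one common factor. mt-Nd5, a complex I subunit, was at 2056, 2880 and 3927 CPM in Ai47 and 5506 and 5753 CPM in Ai14 (log2 fold change -0.99, adjusted p = 0.16), and mt-Nd3, another, was at 6.50, 9.91 and 15.8 CPM in Ai47 and 23.7 and 23.4 CPM in Ai14 (-1.151, adjusted p = 0.105). mt-Nd6, which lies on the other strand of the mitochondrial genome, overlapped between the lines at 486, 659 and 977 CPM in Ai47 and 990 and 955 CPM in Ai14 (log2 fold change -0.53, adjusted p = 0.532). Of 77 nuclear genes of the respiratory chain, 5 were called higher in Ai47 and 8 higher in Ai14, shares of 6.49% and 10.4% that are below those of all genes, and their median was 0.04 above that of all genes. Their summed level was 1619, 1812 and 1995 CPM in Ai47 and 1914 and 1978 CPM in Ai14, and overlapped. Atp5b, the catalytic subunit of ATP synthase, was lower in Ai47 at 23.3, 49.5 and 75.1 CPM against 585 and 646 CPM (log2 fold change -3.63, SE 0.47, adjusted p = 1.39e-05; as 1 library adjusted p = 0.0898), and Atp5a1, its partner subunit, was not called (log2 fold change 0.61). Ndufs1 of complex I, Uqcrfs1 of complex III and Cox7a2 of complex IV were higher in Ai47 (log2 fold changes 3.98, 3.18 and 3.95). No nuclear gene of the chain was called as 1 library (6 were higher in Ai47 and 1 in Ai14 at an unadjusted p under 0.05). Over the 90 mitochondrial members, 18 (20.0%) were called higher in Ai14 and 5 (5.56%) higher in Ai47, against 16.0% and 9.55% of all genes. The counts were 10 and 0 without Ai14 replicate 7, the same without replicate 8, and 10 to 14 and 5 without any 1 Ai47 library.

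**Figure D5:**
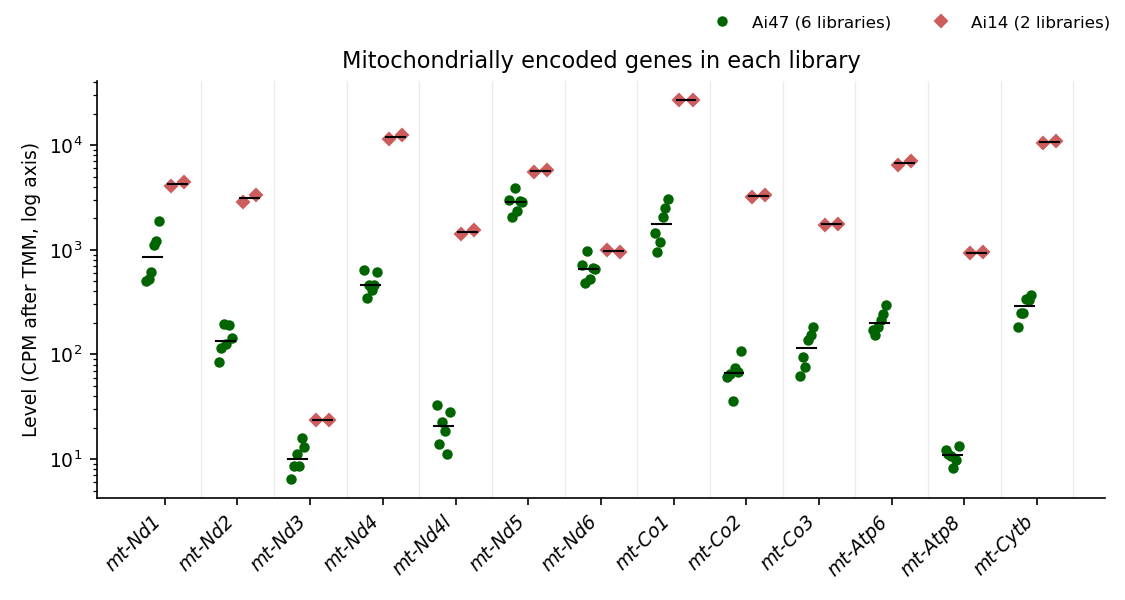
Levels (CPM after TMM, log axis) of the 13 mitochondrially encoded genes in each library, with green circles for the 6 Ai47 libraries, red diamonds for the 2 Ai14 libraries and a black line at the median of each group. The gap between the lines is widest for mt-Atp8 and mt-Nd4l, and the values of mt-Nd6 overlap.

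Markers of other cells and of handling moved with the reporter line as well, and their part in the differences above was not tested. Of 15 neuron markers, 7 (46.7%, against 16.0% of all genes) were called higher in Ai14 and 0 higher in Ai47 (0 at an unadjusted p under 0.05, and DESeq2 called 0). The sums were 1.90, 6.71 and 44.2 CPM in Ai47 and 84.3 and 108 CPM in Ai14. Without Stmn2, the neuron marker with the highest mean in Ai47, they were 1.74, 2.64 and 3.12 CPM in Ai47 and 81.6 and 106 CPM in Ai14. Camk2a, a kinase of synapses, had 2 counts over the 6 Ai47 columns and 1918 and 2530 counts in Ai14, a ratio of 4751 (95% counting interval 1314 to 39239), and Syn1 and Slc17a7 had no counts in Ai47. All 3 were called also as 1 library, with Nefl, a neurofilament. The red blood cell genes summed to at most 1.62 CPM in an Ai47 library and to 80.4 and 15.1 CPM in Ai14, and 4 of 5 were called higher in Ai14, 0 of them as 1 library (4 at an unadjusted p under 0.05). Ependymal and choroid plexus genes summed to 36.3 CPM in Ai14 replicate 7, to 3.24 CPM in replicate 8 and to 3.25, 11.97 and 30.7 CPM in Ai47. Of these, 2 of 11 (18.2%, near the 16.0% of all genes) were called higher in Ai14 and 0 as 1 library (1 at an unadjusted p under 0.05). Heat shock genes were called higher in Ai14 in 5 of 7 and in 0 as 1 library (2 at an unadjusted p under 0.05), led by Hspa1a, an inducible chaperone, at 2.31, 5.92 and 12.5 CPM in Ai47 and 681 and 457 CPM in Ai14 (log2 fold change -6.51; reads of its near-identical copy Hspa1b may be shared). Over the 17 libraries, 80.0% of the red blood cell genes and 71.4% of the heat shock genes were called higher in Ai14, against 16.0% of all genes. Of 17 immediate early genes, 3 (17.6%) were called higher in Ai47 and 3 higher in Ai14, against 9.55% and 16.0% of all genes. Btg2, an antiproliferative gene, was at 13781, 18435 and 19145 CPM in Ai47 and 189 and 209 CPM in Ai14 (log2 fold change 6.44; as 1 library 6.95, adjusted p = 0.00156), and without it the list was at 4075, 4995 and 5701 CPM in Ai47 and 5342 and 7956 CPM in Ai14. Fos and Klf4 were higher in Ai47 and Egr1, Fosb and Zfp36 higher in Ai14, none of them as 1 library.

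Of 79 ribosomal proteins, 7 (8.86%) were called higher in Ai47 and 18 (22.8%) higher in Ai14, against 9.55% and 16.0% of all genes, with a median of -0.16 relative to all genes, and as 1 library only Rps25 and Rps3, both higher in Ai47, were called (3 were higher in Ai14 at an unadjusted p under 0.05). Of 8 proliferation genes, 1 (12.5%, below the 16.0% of all genes) was called higher in Ai14 and 0 higher in Ai47. It was Pcna, a clamp of DNA replication, and it was not called as 1 library. Of 3 replication-dependent histones, 0 were called (0 at an unadjusted p under 0.05, and DESeq2 called 0).

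Y-linked counts differed between the reporter lines. Ddx3y, on the Y chromosome, had 13124 to 48575 counts per Ai47 column and 2 counts in each Ai14 library, and Eif2s3y had 410 to 4055 counts in Ai47 and 6 and 0 in Ai14. Uty was at 270, 335 and 534 CPM in Ai47 and 2.92 and 3.12 CPM in Ai14 (log2 fold change 6.87; as 1 library 7.44, adjusted p = 0.00246), and Kdm5d was not called (log2 fold change 1.77). Each of these genes has an X-linked near-copy with which reads may be shared. Xist was not analysed here. Ddx3y and Eif2s3y were at or near 0 in both Ai14 libraries and had counts in every Ai47 column. A difference in mouse sex, if there was one, cannot be told apart from the reporter line in these libraries.

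The 10 largest differences higher in Ai47 were mostly genes whose counts were common to the 6 columns. Prok2, Zfp708, Syndig1 and Henmt1 had no counts in Ai14 and were at least 3772-fold, 2143-fold, 1189-fold and 710-fold higher in Ai47, from 3 counts in 1 Ai14 library. Prok2 and Henmt1 had one and the same count in all 6 columns (7840 and 1476), and Syndig1 had 2471 or 2472. Adamtsl3 (log2 fold change 14.87), Pdpn, a membrane glycoprotein of lymphatic and stromal cells (14.70), Efna5, an ephrin ligand (13.11), and Igsf3 (12.77) followed, of whose Ai47 counts at least 98.9% were common. Pdpn reached 14590, 16243 and 22851 CPM in Ai47, against 0.974 and 0.333 CPM in Ai14. Ddx3y, with 39.7% common, and Fhit completed the 10. All 10 were called as 1 library, and on the counts above the common ones none was, with adjusted p (edgeR) of 0.0506 for Ddx3y, 0.0748 for Efna5 and 0.160 for Zfp708 the lowest. For Prok2 and Henmt1 no Ai47 counts were left above the common ones, and for most of the others few, so this fit cannot decide whether they differed. Higher in Ai14 were the neuronal genes Camk2a and Kif5a, Cdr1 (at a locus shared with an antisense RNA, which cannot be told apart without strand), the pseudogenes Rpl9-ps6 and Rpl3-ps1 (whose reads may belong to the genes they copy), Hbb-bs, Chtf8, Fndc5, Abca9 and Pcdhgb1. Fndc5, the precursor of irisin, had 1 to 5 counts per Ai47 column and was at 221 and 199 CPM in Ai14 (log2 fold change -10.94, SE 0.69, adjusted p = 2.41e-09; as 1 library adjusted p = 0.00171). Of these 10, Hbb-bs, Chtf8, Abca9 and Pcdhgb1 were not called as 1 library.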

How the data were processed

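Bulk RNA-seq counts per gene were analysed for 6 SMACreER:Ai47, 2 SMACreER:Ai14, 6 cortex and 3 astrocyte libraries. The deposited values are raw counts per gene symbol, made by the authors and not normalized. Per the labels, RNA was prepared with NuGEN Ovation kits, and the submitters' processing notes name Trim Galore 0.6.7, FastQC 0.11.9, MultiQC 1.13, Salmon 1.4.0 and GRCm38, whereas the methods of the study name TruSeq, TopHat and htseq-count; the sources do not say which was used for which library. Ai14 libraries are not described in those methods. Different kits, counting or trimming would change levels gene by gene.

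Groups followed the labels. All 17 libraries entered 1 edgeR 4.0.16 quasi-likelihood fit (R 4.3.3) with 4 groups, TMM scaling and the filter of edgeR at a minimum count of 10, and Ai47 was compared with Ai14 at a Benjamini-Hochberg adjusted p under 0.05. DESeq2 1.42.0 was an alternative. In all, 11 alternatives were written first and 2 were chosen after seeing the data (counts above, and counts equal to, the lowest Ai47 column). List sums without their highest member were also chosen after the values were seen. The members and the 24 gene lists were chosen with earlier results of these data known. Genes named were markers, the sex-linked genes, and of each list the 2 with the highest level and the 2 called members with the largest change. The 10 largest changes in each direction over all genes were also named. Genes named for their change had at least 10 CPM in the higher group. List members given beside their counts were chosen after their values were seen. One list, of structural and nuclear RNAs, had no member in the table. Symbols were matched to GENCODE M21 (97.4% of 21640). A floor of 3 counts (0.109 to 0.171 CPM in Ai47 and 0.0909 and 0.0913 CPM in Ai14) and intervals cover counting error only. The fit was tested on simulated data. Certain genes are not analysed here.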

Additional observations from a re-analysis of the deposited data

Results flagged for a closer look

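Of 75 named genes and 23 list sums tested, 14 were ones in which 1 of the 6 Ai47 libraries stood apart from the other 5 by Dixon's test, which chance gives in about 1 of 20 groups tested. In Ai47 replicate 1 these were Hspg2 at 11.9 CPM (next value 4.02), Lamc1 at 221 CPM (83.5), Ptprc at 38.0 CPM (7.88) and the contractile sum at 16728 CPM (13590). In replicate 2 they were Hspa1b at 14.2 CPM (1.35), Mobp at 0.285 CPM (0.111), Ogn at 56.0 CPM, the oligodendrocyte sum at 18.9 CPM (6.97) and the neuron sum at 44.2 CPM (9.76). In replicate 3 they were Col1a2 at 195 CPM (117), Hba-a2 at 0.487 CPM (0) and Mbp at 0.446 CPM (0.228). In replicate 5 they were Uty at 534 CPM (364) and the channel and signalling sum at 2324 CPM (1969). Groups of 2 were not tested in this way.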

How the results depend on the processing

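Counts are given as higher in Ai47 and higher in Ai14. As 1 library they were 442 and 63 over all genes, mural 2 and 0, endothelial 0 and 0, glial 2 and 5, matrix 2 and 0 and mitochondrial 0 and 6. On the counts above the lowest Ai47 column they were 61 and 38, mural, endothelial and matrix 0 and 0, glial 0 and 3 and mitochondrial 0 and 5, with Acta2 at -2.09 (adjusted p = 0.464) and Col1a1 at 2.73 (adjusted p = 0.604, edgeR). On the lowest count they were 917 and 205, with mural 1, glial 5 and matrix 0 higher in Ai14, endothelial 1 and 0 and mitochondrial 2 and 4. With library totals alone they were 534 and 6604, mural 1 and 46, endothelial 0 and 10, matrix 34 higher in Ai14 and mitochondrial 0 and 52, and Acta2 was at -1.92 (adjusted p = 0.00914). DESeq2 gave 2555 genes, 6 mural and 8 mitochondrial higher in Ai47. The 8 aSMC libraries alone gave 2751 genes, 7 mural and 8 matrix higher in Ai47. Higher in Ai14, endothelial counts were 2 with DESeq2's size factors, with a filter of 1 CPM, without a filter, with a fold threshold and with mitochondrially encoded genes left out. Matrix counts were 9 without a filter. With the fold threshold, mural was 14 higher in Ai14 and mitochondrial 3 higher in Ai47. With mitochondrially encoded genes left out, mural was 13, matrix 9 and mitochondrial 4 higher in Ai14. The cause was not tested.

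With each aSMC library left out in turn, counts higher in Ai47 were 571 to 1621 over all genes, mural 2 to 3, endothelial 0 to 3, glial 2 to 3, matrix 2 to 5 and mitochondrial 0 to 5. Counts higher in Ai14 were 859 to 1724, mural 4 to 14, endothelial 1 to 3, glial 16 to 21, matrix 5 to 12 and mitochondrial 10 to 14. Acta2 was at 0.63 to 0.91 and Col1a1 at 9.60 to 11.01. Without an Ai14 library that line has 1 library, assumed to vary like the other groups.

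Of the named genes, these log2 fold changes changed sign. Above the lowest column, Adamtsl3 was at -0.035, Col1a2 -0.53, Mcm2 -0.79, Sparc -0.23 and Tpm1 -0.038. With library totals alone, Atp5a1 was at -1.59, Col1a2 -1.997, Kdm5d -0.46, Mcm2 -1.73, Mef2c -2.15, Mrvi1 -0.71, Sparc -1.11 and Tpm1 -0.63. On the lowest count, Ccdc153 was at -7.65, Flt1 0.10, Myh11 0.36 and Cspg4 1.03. Cspg4 was also at 0.47 as 1 library and with mitochondrially encoded genes left out, 0.32 with DESeq2 and with its size factors, 0.067 in aSMCs alone, 0.34 with 1 CPM, 0.30 without a filter and 0.13 to 0.57 with a library left out. Ttr was at 6.08 without Ai14 replicate 7 and -2.24 without replicate 8. No paired analysis was possible because the Ai47 libraries (replicates 1 to 6) and the Ai14 libraries (7 and 8) share no replicate number. Counts under the floor of 3 limit glial, neuronal and blood genes in Ai47.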
